A study of Mus musculus with 8 samples.

Results

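Open chromatin was examined around 10 genes of the NF-kappaB system: the 5 transcription factor subunits Nfkb1, Nfkb2, Rela, Relb and Rel, the kinase subunit Ikbkb, and the inhibitors and feedback regulators Nfkbia, Nfkbiz, Tnfaip3 and Bcl3. The members are all peaks within 10 kb of the body of one of these genes in any of 8 peak lists. Peaks of the 8 lists that overlapped were merged, which gave 40784 regions in all, of which 30 lay within 10 kb of a member gene. Every gene had at least 1 region. The lists come from ATAC-seq, which reads out where a transposase can reach the DNA, of BV2 cells, an immortalised mouse microglial line. BV2 cells were grown alone (monoculture) or seeded over the murine glioma line GL261 (co-culture), and then kept for 16 h at 21% oxygen (normoxia) or below 0.1% oxygen (hypoxia). Monoculture normoxia, monoculture hypoxia, co-culture normoxia and co-culture hypoxia had 2 biological replicates each. All 8 libraries came from formaldehyde-fixed cells that were sorted as CD45-positive or GFP-positive. The labels do not say which gate was used for which library or which cells carried GFP, and they name no other genetic change.

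NF-kappaB factors are dimers of Rel-family proteins that are held inactive in the cytoplasm by inhibitors. Signals from cytokine and pattern-recognition receptors activate the IKK kinase, whose catalytic subunit Ikbkb marks the inhibitor encoded by Nfkbia for destruction, and the freed dimers bind kappa B sites in DNA. Several genes of the system are themselves targets, among them the inhibitors that end the response, and in microglia the pathway drives inflammatory gene expression. Low oxygen is known to affect it through the oxygen-dependent hydroxylases that also control HIF.

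The sequences around the start sites of 5 members are shown because a peak was called over each of these starts in 3 or more libraries. Each window runs from 250 bases before to 50 bases after an annotated start (RefSeq, GRCm38.p6), 5′ to 3′ on the gene's strand, and capitals mark matches to the kappa B consensus on either strand. Where matches overlap, the capitals run on.
Nfkb2, chr19:46304487-46304786, plus strand: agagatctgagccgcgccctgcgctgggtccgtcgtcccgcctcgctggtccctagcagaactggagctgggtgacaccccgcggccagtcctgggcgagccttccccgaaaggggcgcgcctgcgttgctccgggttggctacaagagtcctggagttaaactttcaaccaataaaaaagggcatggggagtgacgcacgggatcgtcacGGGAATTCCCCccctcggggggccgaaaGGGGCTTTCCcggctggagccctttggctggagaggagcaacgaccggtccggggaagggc
Rel, chr11:23770920-23771219, minus strand: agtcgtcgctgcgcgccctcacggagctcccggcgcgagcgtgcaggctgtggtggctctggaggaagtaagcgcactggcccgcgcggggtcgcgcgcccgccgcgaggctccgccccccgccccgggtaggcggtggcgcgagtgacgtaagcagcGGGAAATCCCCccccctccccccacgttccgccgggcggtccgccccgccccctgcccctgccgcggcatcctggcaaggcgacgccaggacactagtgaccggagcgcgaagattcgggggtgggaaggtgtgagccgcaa
Nfkbia, chr12:55492598-55492897, minus strand: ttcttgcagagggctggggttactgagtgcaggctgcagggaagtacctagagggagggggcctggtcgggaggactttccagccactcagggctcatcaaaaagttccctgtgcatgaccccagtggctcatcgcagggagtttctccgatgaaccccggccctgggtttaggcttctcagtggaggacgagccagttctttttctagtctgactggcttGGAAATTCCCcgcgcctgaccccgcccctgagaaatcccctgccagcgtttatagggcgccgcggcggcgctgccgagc
Tnfaip3, chr10:19015361-19015660, minus strand: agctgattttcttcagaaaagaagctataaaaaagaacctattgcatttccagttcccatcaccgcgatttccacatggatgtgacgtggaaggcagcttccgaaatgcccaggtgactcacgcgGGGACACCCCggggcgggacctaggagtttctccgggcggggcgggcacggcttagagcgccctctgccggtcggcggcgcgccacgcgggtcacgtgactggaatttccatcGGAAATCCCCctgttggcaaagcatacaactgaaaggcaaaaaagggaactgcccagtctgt
Rela, chr19:5637291-5637590, plus strand: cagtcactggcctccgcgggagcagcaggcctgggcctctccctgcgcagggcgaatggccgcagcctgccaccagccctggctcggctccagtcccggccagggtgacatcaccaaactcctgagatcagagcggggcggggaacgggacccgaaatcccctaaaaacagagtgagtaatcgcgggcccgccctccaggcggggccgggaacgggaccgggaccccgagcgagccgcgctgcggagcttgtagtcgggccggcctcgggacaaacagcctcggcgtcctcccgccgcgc

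The table of start windows held 9 windows for 6 of the 10 members (Nfkb2, Rela, Rel, Nfkbia, Tnfaip3 and Bcl3). Nfkb1, Relb, Nfkbiz and Ikbkb were not matched to a window. A kappa B consensus was found in 7 of the 9 windows, against 4.51% of all 32851 windows in the table and 4.57% of the windows with a peak in all 8 libraries. By gene, 5 of 6 members had one, Rela being the exception, against 5.14% of 27025 genes. The same GGGACTTTCC lies in both of the Nfkb2 windows that overlap each other, so that match is not 2 separate occurrences. The first of these windows also holds a match of its own, GGAATGTCCC, 236 bases before its start site. In the printed windows, the match of Nfkbia starts 29 bases before the start site, those of Tnfaip3 125 and 12 bases before it, and those of Rel 92 and 91 bases before it. Of other motifs searched on both strands, ACGTG and GCGTG (the core of the hypoxia response element) were in 3 and 5 of the 9 windows. Of all windows 19.6% and 32.4% held them, and of the 3828 windows with a peak in all 8 libraries 29.5% and 56.6%. TGANTCA (AP-1) was in 2 of 9 (7.81% of all, 4.75% of those with a peak throughout) and GAGGAA (the core bound by PU.1) in 1 of 9 (28.3% and 27.6%). ACGTG was counted 3 times in the Tnfaip3 window shown, 2 of them on the 2 strands of the same CACGTG. It was in none of the Nfkb2, Nfkbia and Rela windows shown. A match describes letters only and is no evidence that a factor was bound.

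The lists differed in length and in depth, which bears on every count of peaks. Monoculture normoxia had 13333 and 9910 peaks in replicates 1 and 2, and the other 6 libraries had from 21633 to 29658. Read totals were not used here, so depth was estimated from each peak's deposited fold and p-value. The estimated background was 0.758 and 1.03 fragments for the normoxic monoculture libraries and between 1.07 and 1.45 for the other 6, and the weakest summits called held 6 to 8 fragments. Monoculture normoxia replicate 2 and co-culture normoxia replicate 1 had nearly the same background (1.03 and 1.07) and 9910 against 21790 peaks. A peak missing from a list says only that the site was not called there. Each list was therefore also cut to its 9910 strongest peaks, which are called equal-number lists below. Of 12 microglia and macrophage marker genes, 7 and 7 had a peak within 10 kb in monoculture normoxia and 10 to 12 in the other 6 libraries. Ptprc, which encodes CD45, Csf1r, Aif1, Cx3cr1 and Trem2 had one in all 8. Fcer1g, Cd68 and Laptm5 had one in 7 libraries, Tyrobp and Irf8 in 6, Spi1 in 5 and Itgam in 3. Fewer peaks at these markers thus went with fewer member regions in the same 2 libraries, and their part in the member counts was not tested. Of 12 glioma and glial marker genes, 0 to 2 had a peak in the monoculture libraries and 2 to 7 in the co-culture libraries. Within each culture the hypoxic libraries had more of them than the normoxic ones. Olig2, Sox9, Fabp7, Cspg5 and Ptprz1 had none in any library. Sox2, Gfap, Nes and Pdgfra each had a peak in 3 co-culture libraries, Bcan in 2, and none of these in monoculture. S100b had one in 2 libraries of each culture, and Cspg4 in 1 monoculture and 2 co-culture libraries.

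The 30 regions were from 302 to 2265 bp wide. Of these, 21 overlapped the member gene and 9 lay outside it. The regions beside Relb (in Clasrp) and beside Ikbkb (in Polb) overlapped another protein-coding gene and cannot be assigned to the member. The annotation used gives gene bodies and no exons, so exonic and intronic positions were not told apart.

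**Figure D1:**
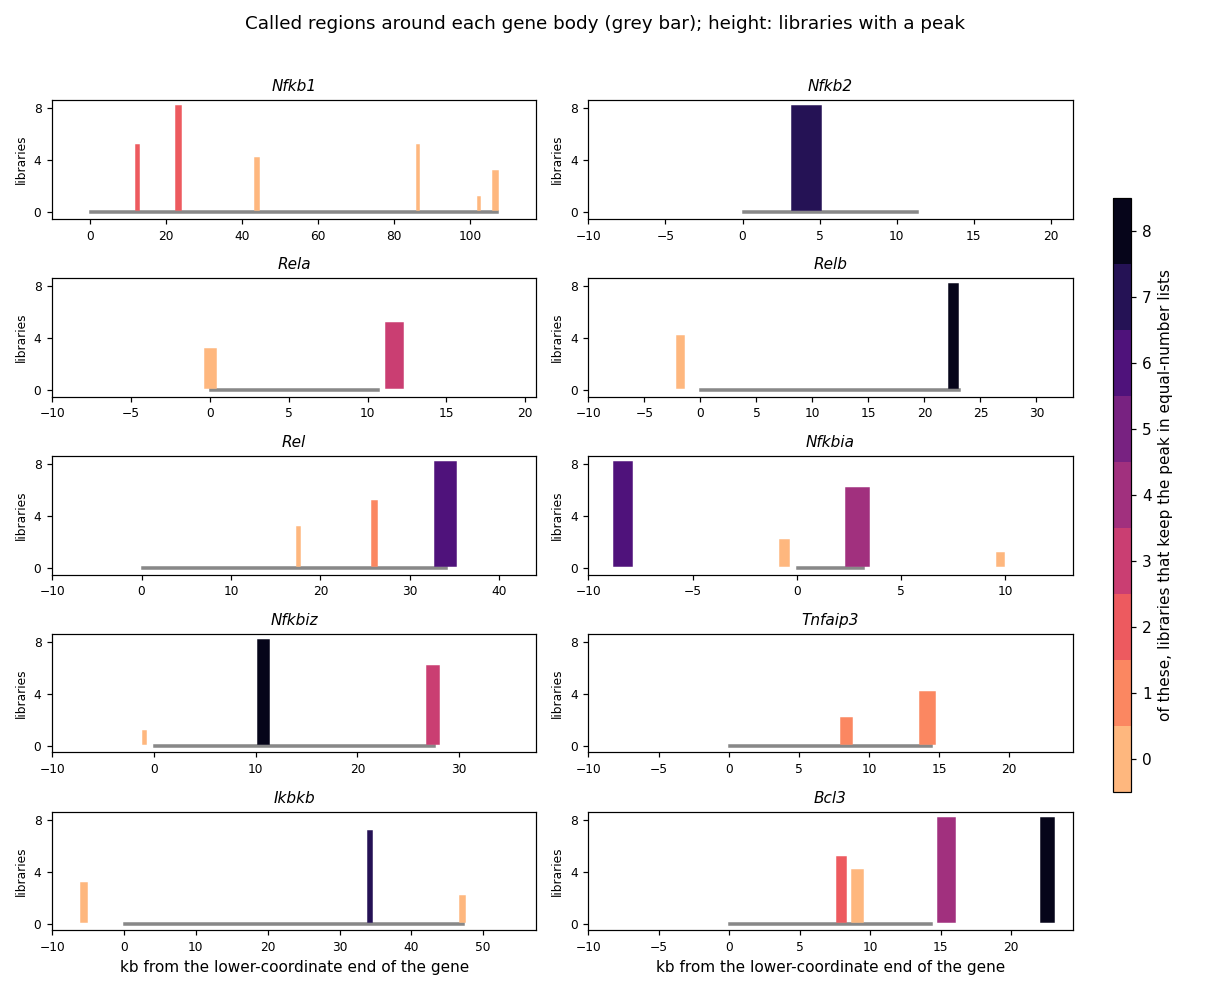
Map of the called regions around each of the 10 genes, with distance in kb from the lower-coordinate end of the gene on the x axis (grey bar: gene body) and the number of libraries with a peak as bar height. Colour gives how many of the 8 equal-number lists keep the peak. Narrow regions are drawn slightly wider than scale so that they can be seen.

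A peak was called in monoculture normoxia at 12 and 8 of the 30 regions (mean 10 ± 2.83, SD, n = 2). Monoculture hypoxia had peaks at 21 and 21 regions, co-culture normoxia at 21 and 18 (mean 19.5 ± 2.12, SD, n = 2), and co-culture hypoxia at 23 and 21 (mean 22 ± 1.41, SD, n = 2). Both normoxic monoculture libraries were below the other 6. Over all regions the order was the same at the low end, with a mean of 27.0% of regions called in monoculture normoxia against 59.8% in hypoxic monoculture, 51.6% in normoxic co-culture and 61.1% in hypoxic co-culture. In equal-number lists the counts were 9 and 8 in monoculture normoxia, 7 and 9 in monoculture hypoxia, 9 and 9 in co-culture normoxia and 11 and 11 in co-culture hypoxia, of the 30, where each library kept 23.1% to 24.2% of all regions. Peaks in all 8 libraries were found at 8 of the 30 regions, against 15.6% of all regions, and peaks in 1 library at 3, against 26.7%.

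**Figure D2:**
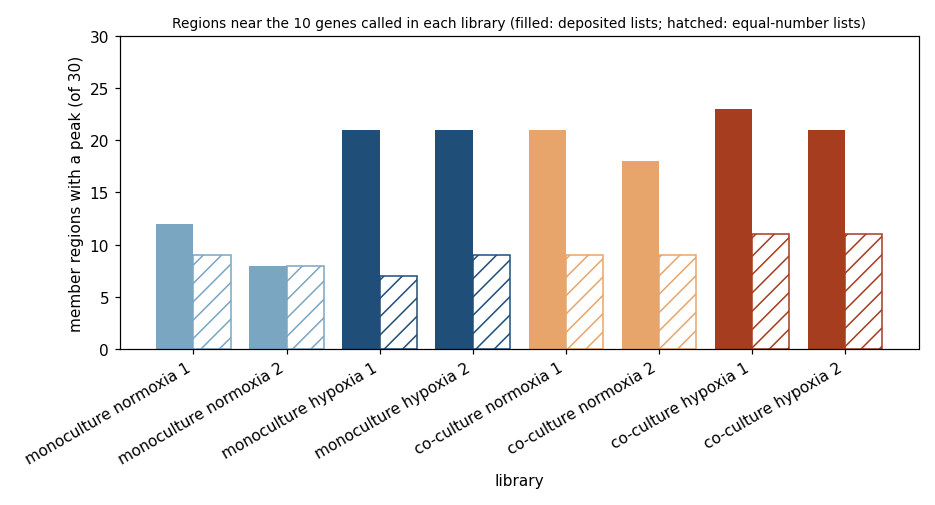
Number of the 30 regions with a peak in each library, for the deposited lists (filled bars) and the equal-number lists (hatched bars). The normoxic monoculture libraries have 12 and 8 regions in the deposited lists and the other libraries 18 to 23. In equal-number lists all libraries have 7 to 11.

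Values are given below on scales that are each library's own. A list percentile is the share of a library's peaks with an equal or lower −log10 p, and since the lists differ in length it describes a rank and shows no change between libraries. For regions with a peak in all 8 libraries, a shared percentile was also computed, the rank among the same 6375 regions in every library. These ranks, as normal scores, were tested with limma in 1 model over all 6375 regions, with Benjamini-Hochberg adjustment and a threshold of 0.05. The 8 member regions in that fit were chosen by having a peak everywhere, so the other 22 regions have no test. In bulk samples, fewer cells with an open site and a less open site in each cell cannot be told apart.

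**Figure D3:**
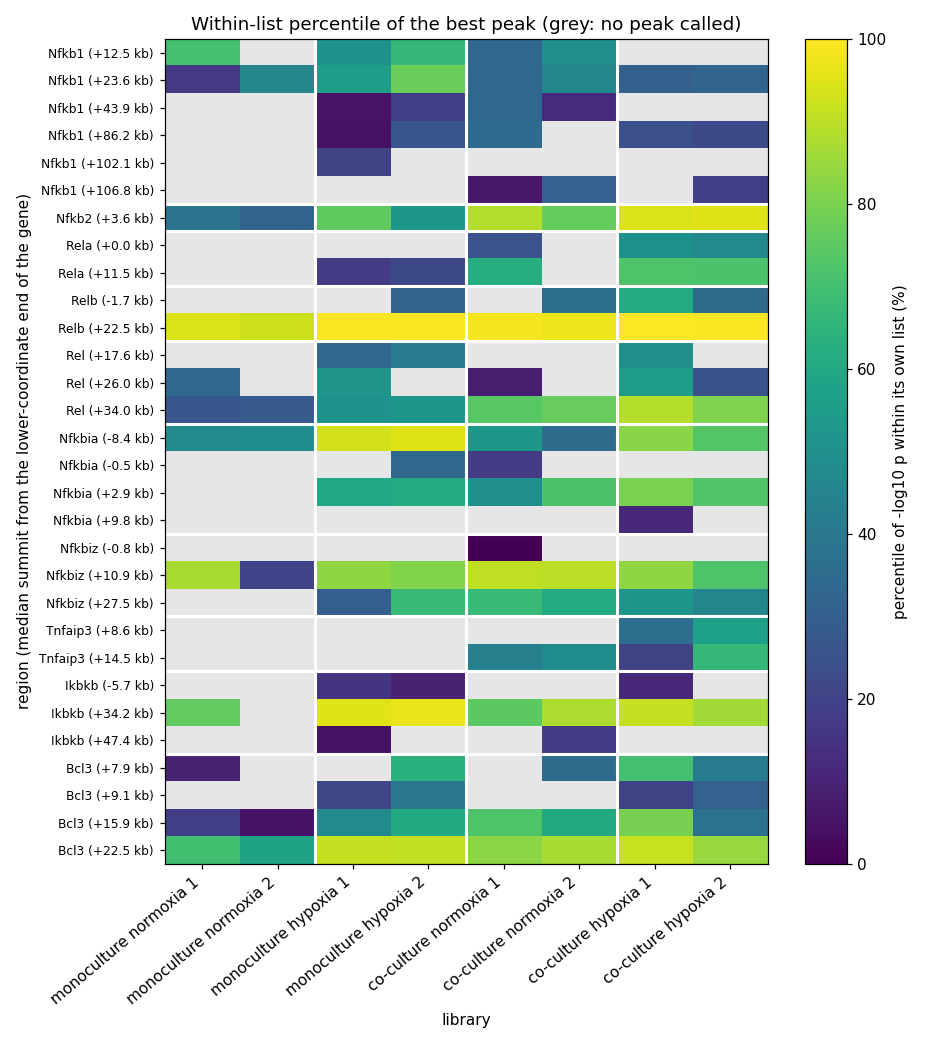
List percentile of the best peak (colour, in %) for each of the 30 regions (y axis, with the distance of the median summit from the lower-coordinate end of the gene) in each of the 8 libraries (x axis). Grey marks a library with no peak called; the region at the Tnfaip3 start is grey in all 4 monoculture libraries.

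Among the factors, Nfkb2, which encodes the precursor of the non-canonical pathway, had 1 region, chromosome 19, 46304235 to 46306097. It spans all 3 annotated start windows of the gene and also overlaps 4833438C02Rik, a gene model on the opposite strand, so the peak cannot be assigned to either gene alone. A peak lay over the window shown above in 8 libraries, and over each of the other 2 windows in 6. The merged region was called in all 8 libraries. Its shared percentiles were 17.9 and 14.9 in monoculture normoxia, 42.4 and 16.0 in monoculture hypoxia, 65.8 and 40.2 in co-culture normoxia, and 79.7 and 86.3 in co-culture hypoxia. The summits held an estimated 18 and 19 fragments in monoculture normoxia and 110 and 121 in co-culture hypoxia. Only 1 monoculture library, hypoxia replicate 1 at 42.4, reached the range of the co-culture libraries. The rank was higher in co-culture by 1.31 ± 0.25 (normal score, SE, n = 4 against 4; limma, adjusted p = 0.0219), where 4.99% of all 6375 regions were called higher in co-culture. The oxygen difference at Nfkb2 was 0.63 ± 0.25 and did not pass (limma, adjusted p = 0.123).

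Rel, the c-Rel subunit of lymphoid and myeloid cells, gave a like order at its start. The region, chromosome 11, 23769679 to 23771943, had its median summit 92 bp from the annotated start and was called in all 8 libraries. On the shared scale it stood at percentiles 9.65 and 12.1 in monoculture normoxia, 15.5 and 15.7 in monoculture hypoxia, 36.0 and 40.4 in co-culture normoxia, and 65.4 and 58.5 in co-culture hypoxia. All 4 co-culture libraries were above all 4 monoculture libraries. Their difference in rank was 1.13 ± 0.18 (SE, n = 4 against 4; limma, adjusted p = 0.0211). With oxygen it differed by 0.42 ± 0.18 and did not pass (limma, adjusted p = 0.159). When windows around summits were merged in place of whole peaks, this region and the Bcl3 region nearest its start were not among those called everywhere, so that alternative gives no value for them. In equal-number lists the peak stayed in both normoxic monoculture libraries and all 4 co-culture libraries and dropped out of both hypoxic monoculture libraries. A region 8137 bp into the gene was called in 5 libraries and one 16481 bp in, chromosome 11, 23754173 to 23754604, in 3 hypoxic libraries and no normoxic one.

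Over the 8 fits that left out 1 library, the culture difference stayed between 1.10 and 1.497 at Nfkb2 and between 1.03 and 1.18 at Rel, but the calls were not stable. Each was lost without monoculture hypoxia replicate 1 or 2, co-culture normoxia replicate 1 or 2, or co-culture hypoxia replicate 2, with limma adjusted p from 0.0266 to 0.0991 at Nfkb2 and from 0.0232 to 0.0991 at Rel over the 8 leave-out fits. In those 5 fits no region of the whole table passed for culture. Ranked by the deposited fold in place of −log10 p, the differences were 0.85 (limma, adjusted p = 0.172) and 0.94 (limma, adjusted p = 0.118). The count of glial marker genes moved with culture as given above (0 to 2 against 2 to 7 of 12), and its part in these differences was not tested.

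Relb, the factor activated by the non-canonical pathway, had the highest-ranked region of all members, chromosome 7, 19628412 to 19629205, at the upper-coordinate end of the gene. Its list percentile ran from 92.4 to 99.7 and it was kept in all 8 equal-number lists. The shared percentiles were 89.8 and 88.3 in monoculture normoxia, 98.0 and 97.8 in monoculture hypoxia, 95.7 and 91.7 in co-culture normoxia, and 98.8 and 98.4 in co-culture hypoxia. All 4 hypoxic libraries were above all 4 normoxic ones. The rank was higher in hypoxia by 0.73 ± 0.19 (SE, n = 4 against 4; limma, adjusted p = 0.0403), where 4.83% of all regions were called higher in hypoxia. This call was the weakest of the set. It was lost on the plain percentile scale (limma, adjusted p = 0.198), with ranks of the fold (difference 0.25, limma, adjusted p = 0.661), and in 7 of 8 leave-out fits, every one but that without monoculture normoxia replicate 1, with adjusted p up to 0.137. The difference stayed between 0.65 and 0.81 over the leave-out fits, and among the regions in all 8 equal-number lists it was 0.83 and passed (limma, adjusted p = 0.0318). Culture differed by 0.24 ± 0.19 (limma, adjusted p = 0.394), and by -0.36 with ranks of the fold (0.525). A second region, 1438 bp below the lower end and inside Clasrp, was called in 4 libraries.

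Rela, the main transactivating subunit, had no peak at its start in monoculture. The region there, chromosome 19, 5637107 to 5637808, was called in co-culture normoxia replicate 1 and in both libraries of co-culture hypoxia, at list percentiles 25.5, 50.0 and 47.2 and with an estimated 14, 24 and 26 fragments. The 4 monoculture libraries and co-culture normoxia replicate 2 had none, and no equal-number list kept it. A second region 481 bp above the upper end, chromosome 19, 5648615 to 5649670, was called in 5 libraries. Its list percentiles were 17.3 and 22.2 in monoculture hypoxia, 62.1 in co-culture normoxia replicate 1, and 72.6 and 71.7 in co-culture hypoxia. It was kept in the equal-number lists of the 3 co-culture libraries that had it and in neither monoculture one. Neither normoxic monoculture library had a peak at either region. The glial marker counts ran from 0 to 2 of 12 in monoculture and from 2 to 7 in co-culture, and their part in the Rela calls was not tested.

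Nfkb1, which encodes the precursor of the canonical partner of Rela, had 6 regions, all inside its 107315 bp body. One of them, chromosome 3, 135607154 to 135608659, was called in all 8 libraries. Its shared percentiles were 3.73 and 26.7 in monoculture normoxia, 19.7 and 43.1 in monoculture hypoxia, 4.36 and 9.11 in co-culture normoxia, and 4.36 and 9.15 in co-culture hypoxia. Replicates differed as much as groups, and neither the culture difference of -0.66 ± 0.29 (limma, adjusted p = 0.148) nor the oxygen difference of 0.34 ± 0.29 (limma, adjusted p = 0.450) passed. Without monoculture normoxia replicate 1 the culture difference became -0.95 and passed (limma, adjusted p = 0.0399), and without replicate 2 it was -0.42 (0.276). The oxygen difference was -0.02 (0.959) and 0.53 (0.191) in the same 2 fits. The region at the upper-coordinate end of the gene, chromosome 3, 135690719 to 135691930, was called in both co-culture normoxia libraries and 1 of co-culture hypoxia, at list percentiles 6.52, 31.5 and 18.7, and in no monoculture library. The region with the highest median list percentile over the 8 libraries, 41.5 with absent peaks at 0 against 39.6 for the region called everywhere, was chromosome 3, 135596722 to 135597394. It was called in 5 libraries, at list percentiles 70.6 in monoculture normoxia replicate 1, 50.8 and 66.7 in monoculture hypoxia, and 33.4 and 49.7 in co-culture normoxia, and in neither library of co-culture hypoxia. Of the others, chromosome 3, 135670585 to 135671254, was called in 5 libraries, none of them of monoculture normoxia, and chromosome 3, 135686559 to 135686860, in monoculture hypoxia replicate 1 alone.

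One Nfkb1 region, chromosome 3, 135628128 to 135629076, had calls in opposite directions. It was called in both libraries of monoculture hypoxia (list percentiles 5.15 and 18.6) and both of co-culture normoxia (33.7 and 12.3), and in none of monoculture normoxia or co-culture hypoxia. Its summits held 10 and 17 estimated fragments in monoculture hypoxia and 19 and 12 in co-culture normoxia, where the weakest summits called held 7 or 8, and no equal-number list kept it. Of all regions, 0.275% had this pattern.

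Ikbkb, the catalytic kinase subunit, had its strongest region inside the gene, chromosome 8, 22693215 to 22693695. It was called in every library but monoculture normoxia replicate 2. Its list percentiles were 75.8 in monoculture normoxia replicate 1, 95.0 and 97.2 in monoculture hypoxia, 74.7 and 87.8 in co-culture normoxia, and 91.1 and 86.1 in co-culture hypoxia. All 7 peaks were kept in equal-number lists. At the upper-coordinate end of the gene, chromosome 8, 22705965 to 22706663, a peak was called in 2 libraries, monoculture hypoxia replicate 1 and co-culture normoxia replicate 2, at list percentiles 4.58 and 17.3. The remaining region, in Polb, was called in 3 hypoxic libraries.

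Among the inhibitors, Nfkbia, which encodes the inhibitor that the kinase targets, had the largest oxygen difference of the 8 regions fitted. It lay at a region 7893 bp below the lower end of the gene, chromosome 12, 55480615 to 55481516, whose nearest other protein-coding gene, Psma6, was 62156 bp away. On the shared scale, the percentiles were 26.6 and 30.4 in monoculture normoxia, 78.3 and 82.8 in monoculture hypoxia, 13.8 and 4.85 in co-culture normoxia, and 51.3 and 47.1 in co-culture hypoxia. The estimated fragments at the summits were 17 and 16, 69 and 85, 22 and 17, and 56 and 40 in the same order of groups. All 4 hypoxic libraries were above all 4 normoxic ones on both scales, and on the shared scale, though not in fragments at normoxia, both co-culture libraries were below both monoculture libraries within each oxygen level. The rank was higher in hypoxia by 1.40 ± 0.20 (SE, n = 4 against 4; limma, adjusted p = 0.0107) and lower in co-culture, by -0.84 ± 0.20 (limma, adjusted p = 0.0333), where 5.84% of all regions were called lower in co-culture. The difference of the oxygen effects between cultures was -0.08 ± 0.40 (limma, adjusted p = 0.964). Over the 8 leave-out fits that difference ran from -0.37 to 0.20.

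The oxygen call at this Nfkbia region was lost without monoculture hypoxia replicate 1 (limma, adjusted p = 0.0676) or co-culture hypoxia replicate 1 (0.0572) and with ranks of the fold (difference 1.03, limma, adjusted p = 0.0838). The difference kept its direction and stayed between 1.24 and 1.53 over the 8 leave-out fits. The culture call was lost in 6 of them, every one but those without a normoxic monoculture library (adjusted p from 0.0380 to 0.132, differences from -0.98 to -0.70), and with ranks of the fold (-0.74, limma, adjusted p = 0.224). The glial marker counts given above moved with culture here too, and their part in the difference was not tested. In equal-number lists the peak was kept in 6 libraries and dropped out of both co-culture normoxia libraries.

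The start of Nfkbia gave another pattern. The region there, chromosome 12, 55491759 to 55492880, was called in every library but those of monoculture normoxia, as were 4.97% of all regions. Its list percentiles were 60.0 and 61.1 in monoculture hypoxia, 49.9 and 72.1 in co-culture normoxia, and 80.0 and 72.9 in co-culture hypoxia, with 39 to 82 estimated fragments. In equal-number lists it was kept in monoculture hypoxia replicate 1, co-culture normoxia replicate 2 and both libraries of co-culture hypoxia. Here the group and its short lists cannot be told apart. Of the 2 further Nfkbia regions, the one 376 bp below the gene was called in monoculture hypoxia replicate 2 and co-culture normoxia replicate 1, and the one 6353 bp above it in co-culture hypoxia replicate 1 alone.

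Nfkbiz, which encodes a nuclear inhibitor-family protein that is itself induced by inflammatory signals, had a region inside the gene in all 8 libraries, chromosome 16, 55821619 to 55822675. Its shared percentiles were 75.6 and 6.53 in monoculture normoxia, 55.9 and 49.9 in monoculture hypoxia, 71.0 and 69.3 in co-culture normoxia, and 53.5 and 46.4 in co-culture hypoxia. The normoxic monoculture replicates stood at opposite ends of the range, and no difference passed (oxygen -0.02 ± 0.39, limma, adjusted p = 0.978; culture 0.43 ± 0.39, limma, adjusted p = 0.477). The values turned on that pair: without monoculture normoxia replicate 1 the culture difference was 0.92 (limma, adjusted p = 0.0260) and the oxygen difference 0.47 (0.122), and without replicate 2 they were -0.15 (0.623) and -0.63 (0.0731). The region at the upper-coordinate end, chromosome 16, 55838246 to 55839404, had the same pattern as the Nfkbia start, with peaks in every library but those of monoculture normoxia. Its list percentiles were 29.9 and 67.7 in monoculture hypoxia, 67.6 and 61.0 in co-culture normoxia, and 52.6 and 46.0 in co-culture hypoxia. In equal-number lists it was kept in 3 libraries, monoculture hypoxia replicate 2 and both of co-culture normoxia. A region 743 bp below the gene was called in co-culture normoxia replicate 1 alone, where it was among the weakest peaks of the list.

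Tnfaip3, a ubiquitin-editing enzyme that shuts off signalling to the kinase, was the member with a presence difference by culture. The region over its start, chromosome 10, 19014516 to 19015606, had its median summit 11 bp from the annotated start. It was called in all 4 co-culture libraries and in no monoculture library. This was true of 1 of 30 member regions and of 1.98% of all regions, and among start windows of 1 of 6 members and 0.992% of 27025 genes. The list percentiles were 43.5 and 48.6 in co-culture normoxia and 19.8 and 66.5 in co-culture hypoxia, with 18, 21, 18 and 36 estimated fragments. Only co-culture hypoxia replicate 2 kept the peak in its equal-number list. A second region inside the gene, chromosome 10, 19008943 to 19009698, 2418 bp from the nearest annotated start, was called in both libraries of co-culture hypoxia and in no other, at list percentiles 36.1 and 56.5. Of all regions 1.98% had a peak in both libraries of co-culture hypoxia and no other. No peak overlapped the second annotated start window of the gene. The count of glial marker genes was 7 and 5 of 12 in co-culture hypoxia and 4 and 2 in co-culture normoxia. In monoculture hypoxia it was 1 and 2, and in monoculture normoxia 0. Monoculture hypoxia replicate 2, without the peak at the start, and co-culture normoxia replicate 2, with it, had the same count of 2. The part of this count in the 2 regions was not tested.

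Bcl3, an inhibitor-family protein that acts as a nuclear cofactor of the factors, had 4 regions and none over its start window in any library. The region nearest the start, chromosome 7, 19823289 to 19824497, was called in all 8 libraries, with its median summit at -1594 bp from the start (upstream). Its shared percentiles were 4.77 and 0.533 in monoculture normoxia, 13.3 and 22.9 in monoculture hypoxia, 34.1 and 19.7 in co-culture normoxia, and 46.6 and 12.1 in co-culture hypoxia. Neither the culture difference, 0.89 ± 0.30 (limma, adjusted p = 0.0766), nor the oxygen difference, 0.60 ± 0.30 (limma, adjusted p = 0.208), passed; without monoculture normoxia replicate 1 the culture difference was 1.09 and passed (limma, adjusted p = 0.0439), and without replicate 2 it was 0.60 (0.192). The oxygen difference was 0.29 (0.548) without replicate 2.

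A region 7757 bp above the gene, chromosome 7, 19830581 to 19831483, in the gene model Gm34891, was kept in all 8 equal-number lists. Shared percentiles here were 50.5 and 40.8 in monoculture normoxia, 73.5 and 70.6 in monoculture hypoxia, 52.3 and 61.5 in co-culture normoxia, and 72.5 and 65.0 in co-culture hypoxia. All hypoxic libraries were above all normoxic ones, but the difference of 0.51 ± 0.19 did not pass (limma, adjusted p = 0.110), and with ranks of the fold it was 0.15 (0.825). Inside Bcl3, chromosome 7, 19817163 to 19817921, in the part shared with the gene model Gm16174, a peak was called in all 4 hypoxic and no normoxic library, at list percentiles 21.5, 39.5, 20.4 and 31.3. It was the 1 member region of 30 with this pattern, against 2.08% of all regions, and no equal-number list kept it. The neighbouring region, chromosome 7, 19816082 to 19816774, was called in 5 libraries, at least 1 of each group.

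**Figure D4:**
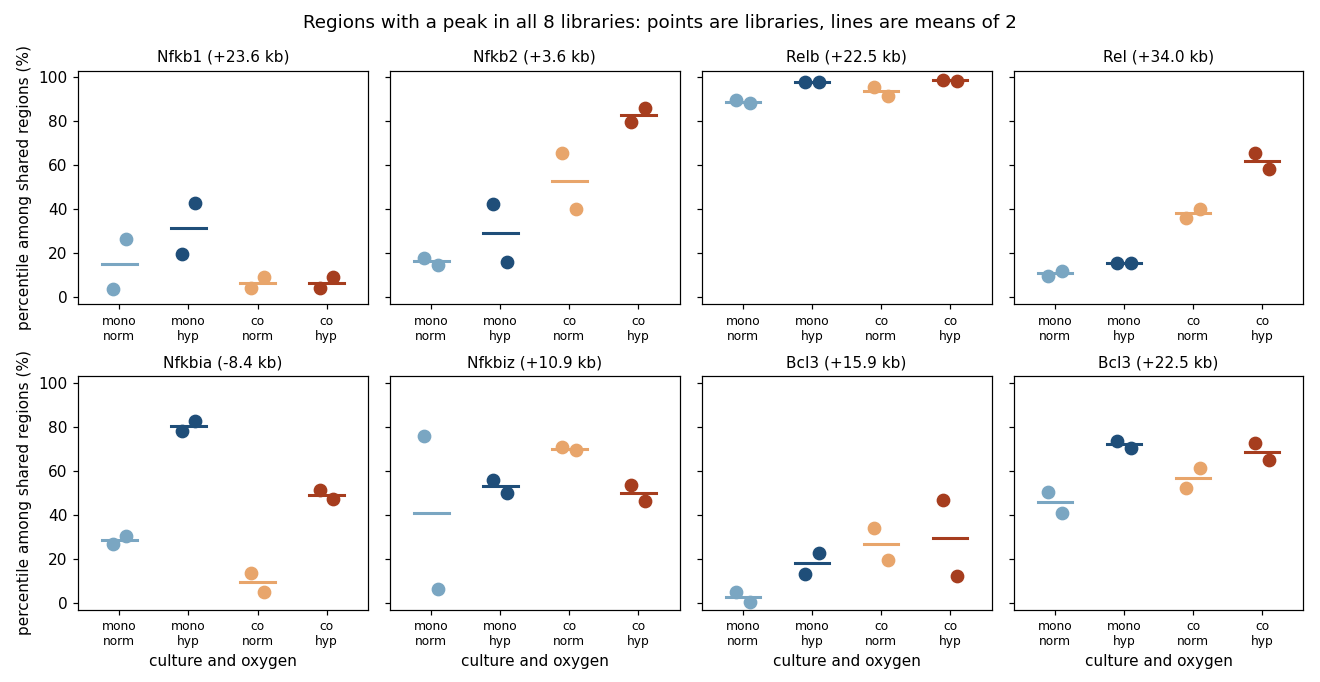
Shared percentile (y axis, rank among the 6375 regions called in all 8 libraries, in %) of the 8 member regions in that set, by culture and oxygen; points are libraries and lines are means of 2. Rel and Nfkb2 stand higher in co-culture, the Nfkbia region higher in hypoxia and lower in co-culture.

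By contrast of groups, a member region counted as gained in a group when its 2 libraries had the peak and the 2 libraries it was compared with had none, and as lost when the reverse held. Between the monoculture groups, hypoxia gained 8 and lost 0 (17.7% and 0.179% of all regions). The 8 lay at Nfkb1, with 2 regions, Rela, Rel, Nfkbia, Nfkbiz and Bcl3, and inside Polb near Ikbkb, where it cannot be assigned to the member. With co-culture in normoxia 5 were gained and 0 lost (12.5% and 0.181% of all regions), namely 2 at Nfkb1 and the regions at the start of Nfkbia, the upper end of Nfkbiz and the start of Tnfaip3. These contrasts share the normoxic monoculture libraries, whose lists were the shortest. With hypoxia in co-culture 2 were gained, at Tnfaip3 and Bcl3, and 2 lost, both at Nfkb1 (6.09% and 2.05% of all regions). With co-culture in hypoxia 3 were gained, the Rela start and both Tnfaip3 regions, and 2 lost, both at Nfkb1 (5.83% and 3.76% of all regions). The equal-number lists held 19790 merged regions, of which 17 were near the members. In them hypoxia in monoculture gained 0 and lost 1 of the 17 (7.39% and 5.15% of all regions), and hypoxia in co-culture gained 1 and lost 1 (5.45% and 5.73%). Co-culture in normoxia gained 1 and lost 1 (4.88% and 2.96%). At hypoxia, co-culture gained 2 of the 17 and lost 0 (7.39% and 7.01%). The region lost with hypoxia in monoculture was the Rel start, which was gained with co-culture in hypoxia together with the region above Rela. The region 7893 bp below Nfkbia was gained with hypoxia in co-culture and lost with co-culture in normoxia, and that at the upper end of Nfkbiz was lost in the first of these and gained in the second. No member region was lost in all 4 hypoxic libraries (0.0196% of all regions) or in all 4 co-culture libraries (0.027%). With 2 libraries against 2 these counts carry no test, and several moved by more than 1.5 times when 1 library was left out. The shares of all regions, given in brackets, rose in the same comparisons. With hypoxia in co-culture 6 were gained without co-culture normoxia replicate 1 (9.77%) and 4 without co-culture normoxia replicate 2 (9.27%). Without co-culture hypoxia replicate 2, 5 were gained (20.6%), and 4 were lost without co-culture normoxia replicate 2 (5.79%). With co-culture in normoxia 10 were gained without co-culture normoxia replicate 2 (21.4%). With co-culture in hypoxia 5 were gained without monoculture hypoxia replicate 2 (8.65%). In that contrast 4 were lost without monoculture hypoxia replicate 2 (8.12%) or co-culture hypoxia replicate 1 (11.4%). Over all libraries, 3 regions were gained by oxygen without co-culture normoxia replicate 1 (3.43%) or co-culture hypoxia replicate 2 (4.45%). By culture 2 were gained without co-culture normoxia replicate 2 (2.77%) or co-culture hypoxia replicate 1 (2.15%). No member region had a peak in both libraries of monoculture normoxia, monoculture hypoxia or co-culture normoxia alone (0.0392%, 2.06% and 0.775% of all regions). None was missing only from monoculture hypoxia, co-culture normoxia or co-culture hypoxia (0.0417%, 0.0466% and 0.0858%). Over the start windows of the 6 matched members, 2 genes, Nfkb2 and Rel, had a peak in all 8 libraries (12.6% of all genes), and Nfkbia had one everywhere but in monoculture normoxia (2.89%). None was gained or lost by oxygen (0.181% and 0.0037%) or lost by culture (0.0037%).

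Over the 8 member regions in the rank fit, 2 were called for oxygen (10.1% of all 6375 regions, with 4.83% higher and 5.25% lower) and 3 for culture (10.8% of all). The median oxygen difference was 0.55 over the 8 and -0.00246 over all regions, and 7 of the 8 were positive. The median culture difference was 0.34 over the 8 and 0.00590 over all, and 6 of the 8 were positive. For the difference of the oxygen effects between cultures, limma called 0 of the 8 and 0 of all 6375 regions, with 0 and 625 at an unadjusted p under 0.05.

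Other genes of the pathway were counted in the same way, from a list of 41 receptors, adaptors, kinases, ubiquitin enzymes and further inhibitors. They had 127 regions, and all 41 genes had at least 1. Per library, 30 and 26 of them had a peak in monoculture normoxia and 38 to 41 in the other libraries. Of the 127 regions, 3 were called throughout the 4 hypoxic libraries and never in normoxia, where 2.08% of all regions were. They lay near Irak2, an adaptor kinase of Toll-like and interleukin-1 receptors (chromosome 6, 113644701 to 113645247), near Tlr2, a receptor for bacterial lipoproteins (chromosome 3, 83828109 to 83828586), and near Bcl10, an adaptor of antigen and lectin receptor signalling (chromosome 3, 145929526 to 145929935). Their list percentiles ran from 42.1 to 56.6, from 30.5 to 47.4 and from 13.6 to 64.6. A single region of the 127 was called throughout co-culture and never in monoculture (1.98% of all regions), near Chuk, the other catalytic subunit of the kinase (chromosome 19, 44107169 to 44107784, from 38.0 to 65.2). Of the 32 regions of this list in the rank fit, 2 were called higher and 1 lower with hypoxia (limma; 4.83% and 5.25% of all regions fitted), and 3 higher and 2 lower with co-culture (4.99% and 5.84%). The median differences were -0.02 for oxygen and -0.08 for culture. The part of the glial marker counts given above in the culture results of this list, the region near Chuk included, was not tested.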

How the data were processed

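ATAC-seq of 8 libraries was analysed, with 2 biological replicates in each of 4 groups per the labels. Per the submitters' processing notes, the tools were Trimmomatic 0.36, HISAT2 2.1.0, Picard, SAMtools, deepTools and MACS2 2.1.1.2, with build mm10; their settings are not given in the sources used here. Each deposited list gives, per peak, the authors' score, fold enrichment (a ratio) and −log10 p and −log10 q at the summit, with no read totals.

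Peaks overlapping by 1 bp or more were merged, and regions within 10 kb of RefSeq gene bodies (GRCm38.p6, the assembly that mm10 names) were kept. Ranks of −log10 p were compared with limma 3.58.1 (R 4.3.3) on normal scores over 6375 regions, after the script was tested on simulated data. Estimated fragments solve the deposited fold and −log10 p jointly within 0.001 for peaks with −log10 p under 250, assuming a Poisson model and a pseudocount of 1 in the fold, neither of which the sources used here state. Same-numbered replicates were not taken as pairs, since their deviations correlated at -0.0400 to 0.176 over the 6 pairs of groups and the labels give no shared source. The regions named are each gene's best-ranked region, regions called in a test, in every library but 1 group or in 1 group alone, and others that show where a gene's peaks lie, chosen after their values were seen. The members, gene lists and tests were chosen with earlier results of these data known. Alternatives were equal-number lists, a −log10 q of at least 3, windows of 250 bp on each side of summits, distances of 2 and 50 kb, no peaks over 10 kb, ranks of the fold, plain percentiles, a replicate block, and leaving out each library.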

Additional observations from a re-analysis of the deposited data

Results flagged for a closer look

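The Nfkb1 region on chromosome 3, 135628128 to 135629076, had calls that differed in opposite directions with oxygen in the 2 cultures, and with culture at the 2 oxygen levels. The peak was called in both replicates of monoculture hypoxia and of co-culture normoxia, and in neither of monoculture normoxia nor of co-culture hypoxia. A list without the peak says only that it was not called there, and no equal-number list held it. The difference of the effects was not tested, since the region has no peak in 4 of the 8 libraries. Its highest list percentile was 33.7, in co-culture normoxia replicate 1.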

How the results depend on the processing

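In equal-number lists, which hold 17 member regions of 19790, 0 were gained by oxygen over all 8 libraries and 0 by culture (1.07% and 1.02% of all regions). With hypoxia in monoculture 0 were gained and 1 lost (7.39% and 5.15%), with hypoxia in co-culture 1 and 1 (5.45% and 5.73%), with co-culture in normoxia 1 and 1 (4.88% and 2.96%), and with co-culture in hypoxia 0 were lost (7.01%). Mean regions per library were then 8 for hypoxic monoculture, 9 for normoxic co-culture and 11 for hypoxic co-culture. With summit windows, 1 of 35 regions was lost with hypoxia in monoculture and 1 with co-culture in normoxia (0.245% and 0.249% of all). Within 2 kb, the means were 18 in monoculture hypoxia and 19 in co-culture hypoxia. Within 50 kb, of 62 regions 2 were gained by oxygen over all libraries (2.08% of all), 16 with hypoxia in monoculture (17.7%), 6 with hypoxia in co-culture (6.09%) and 9 with co-culture in normoxia (12.5%), 4 were lost with co-culture in hypoxia (3.76%), and the mean was 16 in normoxic monoculture, 42.5 in hypoxic monoculture, 33.5 in normoxic co-culture and 44 in hypoxic co-culture. The larger and smaller distances count more and fewer regions by construction, and for summit windows the cause was not tested.

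In the rank fit, ranks of the fold called 0 member regions for oxygen and 0 for culture, plain percentiles 1 for oxygen (498 of all 6375 regions), and regions in all 8 equal-number lists 1 for oxygen and 0 for culture (460 and 409 of 3418). That last fit holds 3 member regions, at Relb, Nfkbiz and Bcl3, and so none of those called for culture. With ranks of the fold, 53 regions of the whole table were called for oxygen, 11 for culture and 1 for the difference of oxygen effects. The cause was not tested. With the replicate number as a block, 2 member regions were called for oxygen, 3 for culture and 0 for the difference of oxygen effects (602, 617 and 0 of all regions), and no call of a member changed. Leaving out 1 library gave, over all libraries, 1 to 3 regions gained by oxygen (2.20% to 4.45% of all) and 1 to 2 by culture (2.03% to 2.77%). It gave 8 to 10 gained with hypoxia in monoculture (21.3% to 30.2%), 2 to 6 gained and 2 to 4 lost with hypoxia in co-culture (9.27% to 20.6% and 2.81% to 6.82%), 5 to 10 gained with co-culture in normoxia (15.5% to 21.4%), and 4 to 5 gained and 2 to 4 lost with co-culture in hypoxia (8.24% to 16.8% and 4.81% to 11.4%). The rank fits then called 0 to 2 for oxygen, 0 to 6 for culture and 0 for the difference of oxygen effects, with from 0 to 994, 0 to 997 and 0 of all regions called. The 6 came without monoculture normoxia replicate 1, where 997 of 7247 regions were called for culture. The weakest summits called held 6 to 8 estimated fragments, which limits what could be called; why the lists of monoculture normoxia were shorter was not tested.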
